A study of Mus musculus with 6 samples.

Results

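The comparison concerns RNA crosslinked to FLAG-tagged PTBP1 in newborn mouse cortex, set against a FLAG immunoprecipitation from cortex that carries no tagged protein. The FLAG-PTBP1 library came from Rosa-PTBP1; Emx1-cre cortex and the background library from WT cortex (replicate 2), and both were read in sequencing run WA047. Lines of a list that gave the same start and end on the same strand were counted once, as 1 distinct interval. Intervals of both lists that touched on 1 strand were merged into union sites, and chromosome 10 was left out. This gave 51149 union sites, of the 168274 that all 6 libraries of the series form on all chromosomes. A strongly bound locus was a union site with 100 or more FLAG-PTBP1 intervals, and it was free of background when the WT library was listed at 0 there. A locus held mainly by background had 10 or more WT intervals and a share of the WT library at least 4 times its share of the FLAG-PTBP1 library. These rules gave 131 loci of the first kind (0.256% of the union sites) and 114 of the second (0.223%).

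Polypyrimidine tract binding proteins bind pyrimidine-rich stretches of RNA, largely in introns of nuclear pre-mRNA, and control alternative splicing. PTBP1 is abundant in neural progenitors and low in neurons, where the related PTBP2 takes its place during differentiation. In a CLIP experiment ultraviolet light joins a protein to the RNA it touches, so that RNA recovered with the protein marks where it was bound. RNA can also be carried along by beads, antibody and membrane, and an immunoprecipitation without the tagged protein measures that carry-over.

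All mice were of BL6/129Sv background and 1 day old, and all tissue was cerebral cortex. The Rosa-PTBP1 transgene supplies FLAG-PTBP1 once Emx1-cre is active, which is in the dorsal forebrain and the excitatory lineage of the cortex, so other cortical cells are not expected to carry the tagged protein. WT cortex had neither the transgene nor the recombinase, so the comparison differs by both. The FLAG-PTBP1 mice kept their own PTBP2. Cells were irradiated at 400 mJ/cm2, nuclear fractions were precipitated with the same FLAG antibody, and RNA was cut from the membrane at 80 to 110 kDa. FLAG-PTBP1 alone runs at 60 kDa. The other libraries used here are FLAG in WT replicate 1, FLAG in cortex with PTBP2 loxp/loxp alleles beside Rosa-PTBP1 and Emx1-Cre (called FLAG with loxP alleles), and PTBP2 in WT and in Rosa-PTBP1; Emx1-cre cortex. Each comparison rests on 1 library a side, so no p-value is given. Ranges in brackets are exact 95% intervals. They cover counting error only, and the counts at a site are not independent draws.

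Without chromosome 10 the FLAG-PTBP1 list held 351071 distinct intervals and the same-run WT list 25658, a ratio of 13.7. FLAG-PTBP1 intervals had a median length of 30 bases (quartiles 25 and 39), and WT intervals 35 bases (28 and 45). The lists gave 1.06 and 1.49 lines per distinct interval. Both lists hold only clusters that passed a false discovery rate set per list, so reads below that level are not seen at a site listed at 0, for which neither a fold nor an upper limit is given. No gene model or genome sequence of the mm9 build was used here, so loci are given by position, without gene, exon, intron or sequence. Positions are of mm9, counted from 1.

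The lists shared few sites. FLAG-PTBP1 was listed at 42923 union sites and the WT library at 9061, and both were listed at 835. These 835 were 1.95% of the FLAG-PTBP1 sites and 9.22% of the WT sites. They held 6.55% of the FLAG-PTBP1 intervals (6.47 to 6.63) and 35.0% of the WT intervals (34.4 to 35.6). With WT replicate 1 as the background these shares were 15.9% and 5.62%, so which share was the larger depended on the background library. Most of the WT list lay elsewhere: 8226 sites were listed in it alone, and 7810 of them had 1 to 4 intervals.

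The percentage of sites that the background also listed was larger at stronger sites. A site with more FLAG-PTBP1 intervals would also have more WT intervals at equal shares, so this percentage does not measure the background share. Of the 6505 sites with a single FLAG-PTBP1 interval, 63 had a WT interval (0.968%, 0.745 to 1.24). Of the 436 sites with 50 to 99 intervals, 31 did (7.11%, 4.88 to 9.94). Of the 36 sites with 200 or more, 14 did (38.9%, 23.1 to 56.5). In amount, sites with a single FLAG-PTBP1 interval had 228 WT intervals where equal shares of the 2 libraries would give 475. Sites with 50 to 99 had 476 where equal shares would give 2132. Sites with at least 100 but fewer than 200 had 382 where equal shares would give 1258. Sites of 200 or more had 3979 where equal shares would give 1163, so that the direction turned at the strongest sites. The 8 loci held mainly by background among those sites had most of these intervals, and the other 28 had 229 where equal shares would give 835.

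**Figure D1:**
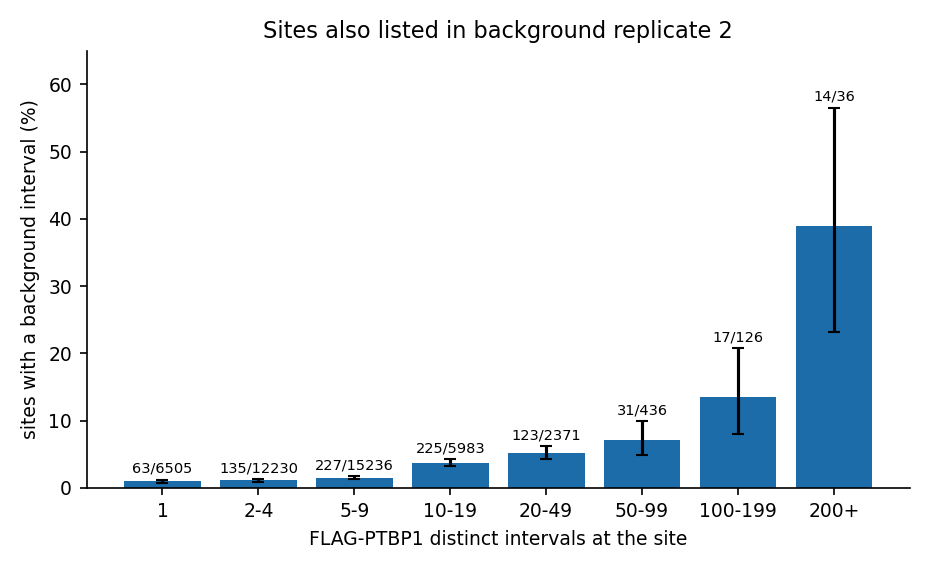
Bars give the percentage of union sites with at least 1 interval of WT replicate 2 (vertical axis, %), for sites grouped by their number of FLAG-PTBP1 intervals (horizontal axis). Whiskers are exact 95% intervals and the printed fractions are sites with background over all sites; the percentage climbs from 0.968% at single-interval sites to 38.9% at sites of 200 or more.

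The 162 sites with 100 or more FLAG-PTBP1 intervals fell into 3 kinds. At 131 the WT library was listed at 0, at 11 it held at least 4 times the FLAG-PTBP1 share, and at 20 it was listed below that level. The 131 background-free loci held 21261 FLAG-PTBP1 intervals, 6.06% of the library. At equal shares the WT library would have had 1554 intervals over them, and between 7.31 and 35.9 at each. The WT count of 0 was fixed by the rule, so these values give only the scale of the limit. They lay on 19 chromosomes, 71 on the plus strand and 60 on the minus strand, with 22 on chromosome 9, 18 on chromosome 16 and 13 on chromosome 14. With chromosome 10 included, these chromosomes held 8.29%, 8.59% and 6.91% of the FLAG-PTBP1 list. They held 4.89%, 3.15% and 3.22% of the WT list. Where the WT list was thin, a locus was more easily listed at 0. Without chromosomes 14 and 16 there were 100 background-free loci. No WT interval was listed on the opposite strand of any background-free locus. Likewise no locus held mainly by background had a FLAG-PTBP1 interval on its opposite strand, so this did not set the class apart. Within 1 kb on the same strand 21 of the 131 did have WT intervals, up to 27, and the rate beside other sites was not counted. The loci just inside the limit of 100 lay on chromosome 2 from 6620286 to 6620678 and on chromosome 9 from 49523724 to 49524106, with 100 intervals each, and those just outside had 99.

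**Figure D2:**
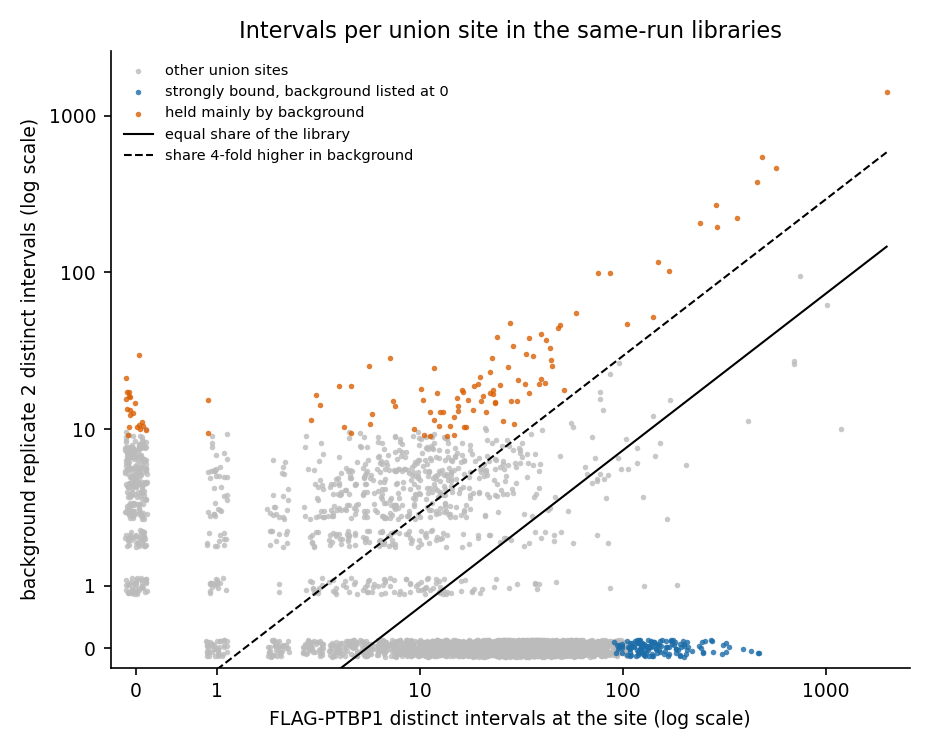
Each point is a union site, placed by its distinct intervals in FLAG-PTBP1 (horizontal axis) and in WT replicate 2 (vertical axis), both on log scales with 0 set apart, with small random offsets and at most 40 points drawn per pair of counts. The solid line marks equal shares of the 2 libraries and the dashed line a share 4-fold higher in WT; the 131 background-free loci lie along the bottom and the 114 loci held mainly by background above the dashed line.

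The strongest background-free loci, called F1 to F10 by their number of FLAG-PTBP1 intervals, had between 281 and 491. F1, at chr18:37189323-37190366 on the plus strand, had 491 intervals in FLAG-PTBP1 and 0 in WT replicate 2. In the other libraries it had 2 in WT replicate 1, 518 in FLAG with PTBP2 loxP alleles, 539 in PTBP2 WT and 347 in PTBP2 Rosa-PTBP1. It was thus high in every library made with a PTB protein and near 0 in both background libraries. F2, the neighbour of F1 at chr18:37188004-37189240, gave 441, 0, 2, 400, 411 and 242 intervals in the same order of libraries. F1, F2 and another locus beside them formed a plus-strand stretch of 3831 bases with 1176 FLAG-PTBP1 intervals, the most of any stretch of background-free loci.

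F3, at chr2:158209003-158209356 on the plus strand, was compact, with 438 FLAG-PTBP1 intervals in 354 bases and a depth of 145 at its highest base. It was listed at 0 in both WT FLAG libraries, and had 322 intervals in FLAG with loxP alleles, 656 in PTBP2 WT and 334 in PTBP2 Rosa-PTBP1. By contrast F4, at chr3:28178806-28180054 on the plus strand, spread 435 intervals over 1249 bases with a depth of no more than 23. F4 had 0 and 2 intervals in WT replicates 2 and 1, 376 with loxP alleles, 398 in PTBP2 WT and 180 in PTBP2 Rosa-PTBP1. The background-free class therefore held both a single tall stack and broad fields of bound RNA.

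F5, at chr14:65030082-65031045 on the minus strand, had 374 FLAG-PTBP1 intervals, 0 and 2 in WT replicates 2 and 1, 382 with loxP alleles, 287 in PTBP2 WT and 169 in PTBP2 Rosa-PTBP1. It belonged to a stretch of 4 background-free loci with 910 FLAG-PTBP1 intervals over 4386 bases. F9, at chr2:4141245-4142143 on the plus strand, had 292, with 0 and 4 in the WT replicates, 306 with loxP alleles, 167 in PTBP2 WT and 105 in PTBP2 Rosa-PTBP1. F10, at chr14:40200193-40201157 on the minus strand, had 281, with 0 and 3 in the WT replicates, 304 with loxP alleles, 157 in PTBP2 WT and 14 in PTBP2 Rosa-PTBP1. F10 was the locus of these 3 where the PTBP2 Rosa-PTBP1 count was lowest against PTBP2 WT.

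F6, F7 and F8 were listed at 0 in PTBP2 Rosa-PTBP1. F6, at chr9:41397499-41398350 on the plus strand, had 321 FLAG-PTBP1 intervals, 0 and 1 in the WT replicates, 203 with loxP alleles and 89 in PTBP2 WT. F7, at chrX:68625586-68626173 on the plus strand, had 320, with 0 in both WT replicates, 310 with loxP alleles and 147 in PTBP2 WT. Chromosome 9 was nearly empty in the PTBP2 Rosa-PTBP1 list, with 769 distinct intervals against 9963 in PTBP2 WT. Chromosome X had 1875 against 4224, but the single locus chrX:100661940-100663005 held 1327 and 1404 of these. The rest of chromosome X was therefore thin in PTBP2 Rosa-PTBP1. F8, at chr4:77833048-77834254 on the minus strand, had 305, with 0 and 3 in the WT replicates, 274 with loxP alleles and 97 in PTBP2 WT, and chromosome 4 held 1540 intervals in PTBP2 Rosa-PTBP1 against 7957 in PTBP2 WT. At F6, F7 and F8 a missing stretch of the PTBP2 Rosa-PTBP1 list and an unbound locus cannot be told apart.

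**Figure D3:**
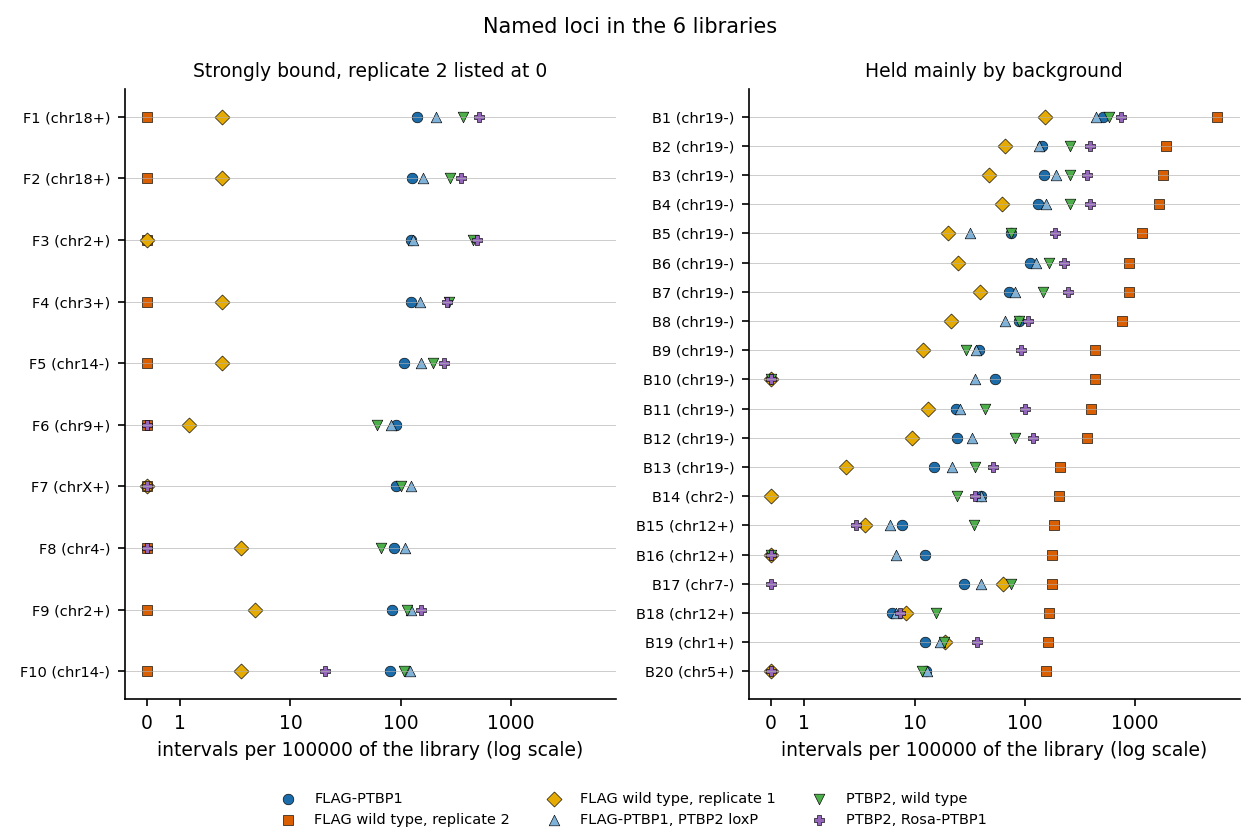
Points give the intervals of each of the 6 libraries per 100000 intervals of that library (horizontal axis, log scale with 0 set apart) at the 10 strongest background-free loci (left) and at the 20 loci held mainly by background with the most WT replicate 2 intervals (right). On the left both WT FLAG libraries lie far to the left of the PTB libraries, except that PTBP2 Rosa-PTBP1 is at 0 for F6, F7 and F8; on the right only WT replicate 2 lies to the right of them, and WT replicate 1 lies below FLAG-PTBP1 at most loci.

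The libraries that took no part in choosing the 131 loci are given next. WT replicate 1, from other sequencing runs, was listed at 63 of them (48.1%), against 6.38% of all FLAG-PTBP1 sites, but with few intervals. Its highest count at any of them was 7, and the sum over all 131 was 123 where equal shares would give 5076. Its share of intervals at these loci was 0.0242 times that of FLAG-PTBP1 (0.0201 to 0.0289), and at all 131 its share was the lower. The loci were chosen for a high FLAG-PTBP1 count, and a low replicate 1 share was general. Over all FLAG-PTBP1 sites replicate 1 held 5.61% of its own intervals, where FLAG-PTBP1 held all of its intervals. At the 20 strong loci of neither class its share was 0.0581 times that of FLAG-PTBP1 (0.0470 to 0.0711). At 68 of the 131 loci both background libraries were listed at 0.

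FLAG-PTBP1 with PTBP2 loxP alleles was listed at all 131 loci, against 36.1% of all FLAG-PTBP1 sites, with 21 to 518 intervals each. Its share of intervals over the class was 1.22 times that of FLAG-PTBP1 (1.20 to 1.24). PTBP2 WT was listed at 129, against 23.0% of all FLAG-PTBP1 sites, and its share over the class was 1.32 times that of FLAG-PTBP1 (1.29 to 1.35). By locus, PTBP2 WT had the higher share at 72 and the lower at 59, a median of 1.11 times. The background-free loci were wide, with a median of 445 bases against 53 over all FLAG-PTBP1 sites, and a wide site is more easily overlapped; the part of width in these counts was not tested. PTBP2 Rosa-PTBP1 was listed at 84, against 9.54% of all FLAG-PTBP1 sites. With chromosomes 4 to 9 left out, which were sparse in that list, it was listed at 78 of 83. This stood against 14.1% of FLAG-PTBP1 sites on the same chromosomes. Of the 20 strong loci of neither class, FLAG with loxP alleles and PTBP2 WT were each listed at 20 and PTBP2 Rosa-PTBP1 at 17. Their shares over these 20 were 1.18, 1.55 and 2.18 times that of FLAG-PTBP1, against 1.22, 1.32 and 1.34 over the background-free loci. Listing in these libraries thus did not set the background-free loci apart from other strong loci.

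Both background-free loci that PTBP2 WT did not list lay on the minus strand of chromosome 1. The first, chr1:170331095-170331485, had 123 FLAG-PTBP1 intervals and 56 with loxP alleles. The second, chr1:170356539-170356907, had 118 and 51. Both were listed at 0 in both WT FLAG libraries and both PTBP2 libraries, but WT replicate 2 had 2 intervals within 1 kb of the first and 27 within 1 kb of the second, the most beside any background-free locus. Of the 131, these were the loci where PTBP2 was not listed in WT cortex.

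The background-free loci often lay near others of the class. Only touching intervals were merged, so 1 field of bound RNA can count as more than 1 locus. On chromosome 9, for example, a locus ended at 27993340 and the next began at 27993347. How often other sites were grouped was not counted. Loci less than 10 kb apart on 1 strand formed 88 stretches, of which 26 held more than 1 locus and together 69 of the 131. Stretches of 4 loci lay on chromosome 14 (2), chromosome 9 (2) and chromosome 5 (1). On the plus strand of chromosome 9 from 27883483 to 27936494, 6 background-free loci held 994 FLAG-PTBP1 intervals, and no strongly bound locus there was listed in WT replicate 2.

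The loci held mainly by background were a different set. They held 6094 WT intervals, 23.8% of the WT library, and 6887 FLAG-PTBP1 intervals, 1.96% of that library. Their median width was 90 bases, against 445 at the background-free loci, 51 over all union sites and 45 over all WT sites. The 20 strong loci of neither class had a median of 440 bases, so width did not set background-free loci apart from other strong loci. For the loci held mainly by background, the part of width in their overlap with other libraries was not tested. Of the loci held mainly by background, 72 lay on the minus strand and 42 on the plus strand. At 20 of them FLAG-PTBP1 was listed at 0, and at the other 94 the WT share was 4.75 to 205 times the FLAG-PTBP1 share, with a median of 12.4. The loci were chosen on these same counts for a share at least 4 times higher in WT. The ratios of WT replicate 2 to FLAG-PTBP1 given for this class, with their ranges, therefore describe the choice and test nothing. In absolute numbers the 2 lists were alike: the WT count was higher at 54 loci, lower at 54 and equal at 6. The word mainly therefore refers to the share of each library, not to the number of intervals listed. Loci at the limit of 10 WT intervals numbered 16, and 33 further sites had 9 and passed the fold. The lowest ratios inside the limit were 4.75 and 4.89, and the highest outside it, at sites with 10 or more WT intervals, were 3.91 and 3.51.

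One stretch held most of the WT intervals of the class. On the minus strand of chromosome 19, 13 loci from 5796075 to 5801072 held 4223 WT intervals and 5036 FLAG-PTBP1 intervals. This was 16.5% of the WT library and 1.43% of the FLAG-PTBP1 library, a share 11.5-fold higher in WT (11.01 to 11.96). Counted in listed lines it was 5687 against 6509, a share 8.51-fold higher (8.21 to 8.82). Chromosome 19 outside the stretch held 1.98% of the WT library and 1.16% of the FLAG-PTBP1 library. Most of the WT intervals of chromosome 19 thus lay in the stretch.

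The loci of the chromosome 19 stretch, called B1 to B13 by their WT intervals, all had a WT share at least 7.98 times that of FLAG-PTBP1. B1, at chr19:5797121-5798097, had 1434 WT intervals and 1788 FLAG-PTBP1 intervals, a share 11.0-fold higher in WT (10.2 to 11.8). B5, at chr19:5796773-5797002, had 294 against 263 (15.3-fold, 12.9 to 18.1). B6, at chr19:5798234-5798480, had 227 against 389 (7.98-fold, 6.75 to 9.43), the lowest ratio of the 13. The highest was at B11, chr19:5800213-5800318, with 102 against 84 (16.6-fold, 12.3 to 22.4).

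Within the stretch the 2 libraries laid their intervals down in nearly the same pattern. B1 held 35.5% of the stretch's FLAG-PTBP1 intervals and 34.0% of its WT intervals, and no locus differed by more than 2.35 percentage points. At 11 of the 13 loci the highest base of the 2 libraries lay within 20 bases, with a median distance of 3. The Spearman correlation of FLAG-PTBP1 counts over the 13 loci was 0.95 with WT replicate 2, 0.92 with loxP alleles, 0.88 with WT replicate 1, 0.87 with PTBP2 WT and 0.84 with PTBP2 Rosa-PTBP1. These loci share their neighbourhood and differ in width, so the coefficients are a description. The pattern was less close in the other libraries: B10 had 187 FLAG-PTBP1 and 111 WT replicate 2 intervals but was listed at 0 in WT replicate 1 and both PTBP2 libraries, and B1 held 24.6% of the stretch in PTBP2 Rosa-PTBP1.

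**Figure D4:**
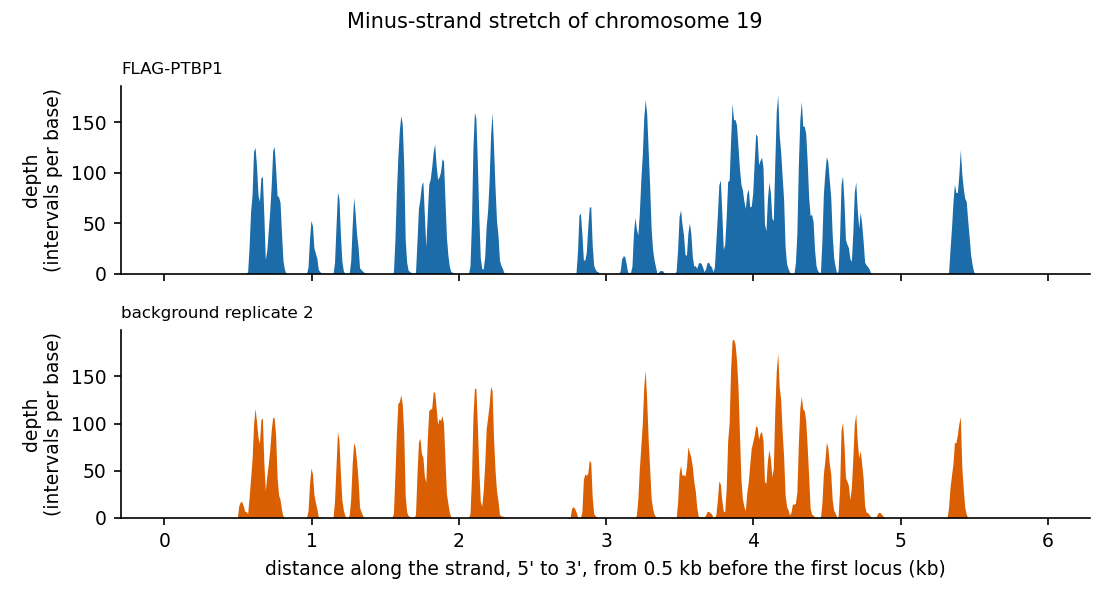
The number of distinct intervals covering each base (vertical axis, mean of 10-base bins) is drawn along the minus-strand stretch of chromosome 19, 5′ to 3′ (horizontal axis, kb), for FLAG-PTBP1 above and WT replicate 2 below. The peaks stand at nearly the same places and heights in both panels, although the FLAG-PTBP1 list is 13.7 times the size of the WT list.

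Identical intervals were frequent at this stretch. Of the WT intervals at the chromosome 19 loci, 27.0% were identical in both ends to a FLAG-PTBP1 interval and 21.1% to one of FLAG with loxP alleles, both from run WA047. It was 15.4% for PTBP2 WT and 10.8% for PTBP2 Rosa-PTBP1, from other runs, and 2.30% for WT replicate 1. At WT sites outside the loci held mainly by background 0.869% were identical to a FLAG-PTBP1 interval. The numbers of intervals at these loci follow the same order of libraries, 5036, 3454, 2945, 2051 and 396, and a crowded locus gives more identical intervals. Carry-over of RNA in the WT precipitation and reads passing between libraries of the run cannot be told apart here.

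The other 101 loci held mainly by background had 1871 WT intervals and 1851 FLAG-PTBP1 intervals, 7.29% and 0.527% of the libraries, a share 13.8-fold higher in WT (12.96 to 14.76). On the plus strand of chromosome 12 from 110782835 to 110784720, 6 loci had 193 WT intervals and 131 of FLAG-PTBP1, with 12 in WT replicate 1, 51 with loxP alleles, 107 in PTBP2 WT and 28 in PTBP2 Rosa-PTBP1. A further 5 loci of the same strand from 110797185 to 110803669 had 70 and 79. On the minus strand of chromosome 5 from 112642688 to 112650751, 7 loci had 164 WT intervals and 140 of FLAG-PTBP1, but only 22 with loxP alleles, 20 in PTBP2 WT, 11 in PTBP2 Rosa-PTBP1 and 7 in WT replicate 1. Chromosome 5 was nearly empty in the PTBP2 Rosa-PTBP1 list, with 399 intervals against 7900 in PTBP2 WT, so its count there is not comparable. The stretch took 0.639% of WT replicate 2, 0.0399% of FLAG-PTBP1, 0.0138% of PTBP2 WT, 0.00883% of FLAG with loxP alleles and 0.00835% of WT replicate 1.

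Some loci were listed almost only in the WT library. The largest was chr17:23949088-23949204 on the plus strand, with 33 WT intervals, 0 of FLAG-PTBP1, 0 in WT replicate 1, 1 with loxP alleles, 1 in PTBP2 WT and 0 in PTBP2 Rosa-PTBP1. The next 2 had 19 WT intervals each and 0 of FLAG-PTBP1. At chr3:80511505-80511613 on the minus strand the loxP list had 4 and the rest 0, and chr7:53048812-53048888 on the plus strand was listed in WT replicate 2 alone. A single member lay on the mitochondrial chromosome, from 339 to 428 on the plus strand, with 17 WT intervals against 12 of FLAG-PTBP1, and with 35 in PTBP2 WT and 25 in PTBP2 Rosa-PTBP1. This locus is encoded outside the nucleus, although the fractions were nuclear preparations.

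By the same rules few of these loci were held mainly by the other background library. WT replicate 1 was listed at 55 of the 114 loci (48.2%, against 5.74% of all union sites) with 635 intervals, a share 0.386 times that of FLAG-PTBP1 (0.355 to 0.419). Replicate 2 was 12.1-fold higher there (11.7 to 12.5), but the loci were chosen for its high share, and replicate 1 took no part in the choice. Over all union sites replicate 1 held 6.03% of its own intervals, where FLAG-PTBP1 held all of its intervals. Replicate 1 thus stood higher against FLAG-PTBP1 at these 114 loci than over all union sites. The replicate 1 share lay below that of FLAG-PTBP1 at 82 loci and above it at 15, and at 17 neither was listed. At 5 loci its counting interval lay above equal shares. The 4 of these with the most intervals were chr7:118219573-118219701 with 53 (2.24-fold, 1.58 to 3.16), chr15:82980188-82980224 with 27 (2.83-fold, 1.67 to 4.72), chr3:68889112-68889245 with 24 (10.1-fold, 4.63 to 23.6) and chr4:131825994-131826042 with 20 (3.49-fold, 1.83 to 6.59). With replicate 1 as the background the same rules gave 77 background-free loci (0.0701% of 109800 union sites) and 22 held mainly by background (0.02%). Of the 131 background-free loci 68 were among the 77, and of the 114 loci held mainly by background 1 was among the 22.

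Of the 114 loci held mainly by background, 78 were listed in FLAG with loxP alleles, 59 in PTBP2 WT and 41 in PTBP2 Rosa-PTBP1, against 30.6%, 19.5% and 8.16% of all union sites. With chromosomes 4 to 9 left out, PTBP2 Rosa-PTBP1 was listed at 35 of 80, against 12.1% of union sites on the same chromosomes. Relative to FLAG-PTBP1, the share of intervals over the class was 0.942 times in FLAG with loxP alleles (0.907 to 0.978), 1.35 times in PTBP2 WT (1.29 to 1.40) and 1.80 times in PTBP2 Rosa-PTBP1 (1.72 to 1.89). Without the chromosome 19 stretch these became 0.874 (0.812 to 0.942), 1.17 (1.08 to 1.27) and 0.978 (0.870 to 1.10). At the 94 loci that both lists held, the highest base of FLAG-PTBP1 and of WT replicate 2 lay within 20 bases at 70, with a median distance of 6. At the 20 strong loci that were in neither class it did so at 3, with a median distance of 154.5 bases, and those loci were wider, with a median of 440 bases.

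The 20 strong loci of neither class included a group of 10. On the minus strand of chromosome 2 between 6756048 and 6805161, these 10 stood beside 4 loci held mainly by background and 1 that was background-free. Of these, S2 at chr2:6779052-6781550 had 1091 FLAG-PTBP1 and 67 WT intervals, a WT share 0.84 times that of FLAG-PTBP1 (0.65 to 1.08). S5 at chr2:6777007-6778524 had 660 and 93, a WT share 1.93 times that of FLAG-PTBP1 (1.53 to 2.40). S3 at chr2:6784640-6786349 had 739 and 25, 0.46 times (0.30 to 0.69), and S4 at chr2:6782926-6784459 had 667 and 25, 0.51 times (0.33 to 0.76). Loci within 50 kb of one another on 1 strand thus ran from a lower to a higher background share. Over the 20, the counting interval lay below equal shares at 8, above at 2 and across them at 10.

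The locus with the most FLAG-PTBP1 intervals outside the chromosome 19 stretch was S1, at chrX:100661940-100663005 on the minus strand. It had 1300 intervals in FLAG-PTBP1 and 9 in WT replicate 2, a share 10.6-fold higher in FLAG-PTBP1. It had 2 in WT replicate 1, 1452 with loxP alleles, 1404 in PTBP2 WT and 1327 in PTBP2 Rosa-PTBP1, so it was high in all 4 PTB libraries and low in both background libraries. On the same strand, 6292 bases away, a stretch of 7 loci held mainly by background ran from 100669298 to 100678418. These 7 had 165 WT intervals, 177 of FLAG-PTBP1 and 45 with loxP alleles, and they were listed at 0 in both PTBP2 libraries. A single locus of the class lay on the other side of S1, at chrX:100655712-100655775, with 16 WT intervals and 32 of FLAG-PTBP1.

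A similar contrast stood beside F3 on chromosome 2. Ending 587 bases before it on the same strand, 3 loci from 158207115 to 158208415 had 48 WT intervals and 22 of FLAG-PTBP1, a WT share 29.9-fold that of FLAG-PTBP1. One of them, chr2:158207219-158207316, had 17 WT intervals and was listed at 0 in each of the other 5 libraries. F3 itself had 438 FLAG-PTBP1 intervals and 0 of WT. In all, 9 neighbourhoods formed by joining loci up to 50 kb apart on 1 strand held both background-free loci and loci held mainly by background. A further 66 held background-free loci without the other class, and 46 the reverse. A locus held mainly by background lay within 10 kb of 5 of the 131 background-free loci. How often such a locus lay near other sites was not counted, so these numbers do not show whether the classes lie apart.

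**Figure D5:**
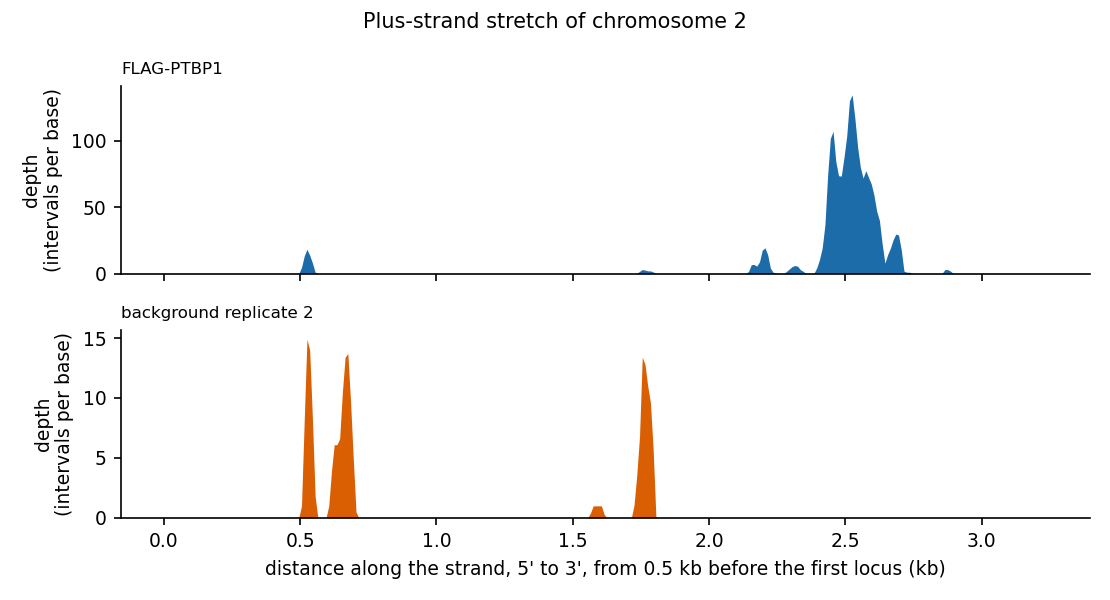
The number of distinct intervals covering each base (vertical axes, mean of 10-base bins, scaled separately) is drawn 5′ to 3′ along the plus-strand stretch of chromosome 2 that ends with F3 (horizontal axis, kb), for FLAG-PTBP1 above and WT replicate 2 below. The tall FLAG-PTBP1 stack of 438 intervals has no WT interval under it, and the 48 WT intervals of the 3 loci before it lie where FLAG-PTBP1 has 22.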

How the data were processed

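The authors deposited 6 lists of read intervals from crosslinked nuclear RNA, which the submitters' processing notes tie to Bowtie, with no version, and to the mm9 build. Per the file headers and names the deposited lists hold significant reads of clusters passing a false discovery rate; for its caller and level: not given in the sources used here. Per the file headers, WT replicate 1 and both PTBP2 lists hold combined data, and their read names come from 2 sequencing runs. A line holds 1 interval with a read name and no count or score, and lines repeating an interval carry the same read name. In FLAG-PTBP1 the distinct lower coordinates numbered 95.4% of the plus-strand and 96.5% of the minus-strand intervals, and the distinct upper coordinates 78.2% and 77.6%. At 71 of the 131 background-free loci and 26 of the 94 loci held mainly by background that FLAG-PTBP1 listed, no lower coordinate repeated, so that the count was at most 1 per base. The members, rules and limits were chosen with earlier results of these data known. Intervals were collapsed, merged (gap 0 bases) and counted with Python 3.11.15, pandas 2.3.3 and numpy 2.4.6; exact Clopper-Pearson and conditional binomial 95% intervals used scipy 1.17.1, and the merging and the 4-fold rule were tested on simulated lists. Other libraries were counted by intervals overlapping a union site by at least 1 base on the same strand. Named loci were the 10 background-free loci with most FLAG-PTBP1 intervals, the 10 loci held mainly by background with most WT intervals, the 5 strongest loci of neither class and those at the limits; other named loci, stretches and neighbourhoods were chosen after their values were seen. With 1 library a side no test was run. The labels do not say whether WT replicates came from separate animals. Gene lists and motifs were not analysed here, because the annotation at hand was GRCm38.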

Additional observations from a re-analysis of the deposited data

How the results depend on the processing

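The counts depended on the size limits and on the background library. With minimums of 50 and 200 FLAG-PTBP1 intervals there were 536 and 22 strongly bound loci free of background, and 244 with intervals up to 50 bases apart merged, which makes longer sites. With replicate 1 as the background, that is without WT replicate 2, there were 77, of which 68 overlapped the 131, and with both WT libraries summed 68. Loci held mainly by background numbered 722 and 39 with minimums of 5 and 20 WT intervals and 22 without replicate 2. The other alternatives gave 88 to 151 and 76 to 152 loci of the classes. The share of FLAG-PTBP1 intervals at shared sites was 8.24% with merging within 50 bases, 7.22% from listed lines, 4.75% from distinct 5′ ends, 5.17% from distinct lower coordinates (an alternative chosen after seeing the data), 7.26% without chromosomes 10, 14 and 16, 15.9% with replicate 1 as background and 18.5% with both. The share of WT intervals at shared sites was, in the same order, 36.4%, 31.0%, 25.1%, 25.3%, 36.1%, 5.62% and 12.5%, and 33.8% with chromosome 10 kept. No paired analysis was possible because only the WT FLAG group has numbered replicates. Depth limits the WT list: a site of 100 FLAG-PTBP1 intervals would have 7.31 WT intervals at equal shares.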

Other observations

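Chromosome 10, left out above, held 531 FLAG-PTBP1 intervals against 1007 in WT replicate 2, 16905 in FLAG with loxP alleles and 10008 in PTBP2 WT. With it kept, the loci held mainly by background numbered 116. The mitochondrial chromosome held 54 FLAG-PTBP1 intervals and 30 of WT replicate 2, which is 0.0154% and 0.113% of the libraries, against 0.0442% in WT replicate 1, 0.00940% with loxP alleles, 0.0959% in PTBP2 WT and 0.173% in PTBP2 Rosa-PTBP1.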
